A study of Mus musculus with 4 samples.

Results

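Type I interferon-stimulated genes were followed across the immune cells of mouse liver. The set was a fixed list of 34 gene symbols, chosen by name with earlier results of these data known. Of these, 33 had a row among the 32344 listed genes. Mx1 was not analysed here. The data came from 4 single-cell libraries of CD45+ liver cells, each pooled from 5 mice after 1 week of tamoxifen. The genotype GS(+/delta)Hep had 1 library, URI(+/delta)Hep had 1 library and wild type (WT) had 2 libraries, and all groups, WT included, received tamoxifen. GS is glutamine synthetase, URI is a prefoldin-family protein, and the names denote loss of 1 copy in hepatocytes; the driver of the deletion is not given in the sources used here. The sorted cells are not the cells in which the deletion was made, so the deletion itself was not checked in them.

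Type I interferons are secreted after cells sense foreign or misplaced nucleic acid. They bind the receptor chains IFNAR1 and IFNAR2, whose kinases JAK1 and TYK2 phosphorylate STAT2. It joins IRF9 in the complex ISGF3, which binds a short repeat of GAAA units in the promoters of its target genes. Many immune cells keep a low level of these genes from tonic interferon, and a liver receives microbial products from the gut through the portal vein. The members cover several steps of the response. Stat2, Irf9 and Irf7 encode transcription factors of the pathway, Ifih1, Ddx58 and Zbp1 encode nucleic acid sensors, and Dhx58 encodes a regulator of RNA sensing. The effectors include the RNA-binding IFIT proteins, the oligoadenylate synthetases and their relatives (Oas2, Oas3, Oasl1, Oasl2), the radical enzyme viperin (Rsad2), the exonuclease Isg20 and the tether of budding virus particles Bst2. Isg15 is a ubiquitin-like modifier and Usp18 removes it and restrains the receptor.

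The promoters of 7 members are shown because the repeat bound by ISGF3 can be read in them directly. Each line gives the 160 bases before the start of the gene, 5′ to 3′ on the gene's strand, from RefSeq promoter windows of build GRCm38.p6. Capitals mark every match to the repeat GAAA, any 2 bases, GAAA or, where the match lies on the opposite strand, to its reverse complement TTTC, any 2 bases, TTTC.
Ifit1 (chr19:34640729-34640888, plus strand): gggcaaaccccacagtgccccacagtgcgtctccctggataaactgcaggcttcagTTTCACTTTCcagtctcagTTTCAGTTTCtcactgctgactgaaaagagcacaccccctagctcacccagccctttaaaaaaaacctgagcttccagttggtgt
Ifit3 (chr19:34583369-34583528, plus strand): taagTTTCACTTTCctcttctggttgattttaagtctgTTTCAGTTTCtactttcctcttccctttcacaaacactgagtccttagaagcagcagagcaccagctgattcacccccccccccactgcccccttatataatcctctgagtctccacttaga
Isg15 (chr4:156200819-156200978, minus strand): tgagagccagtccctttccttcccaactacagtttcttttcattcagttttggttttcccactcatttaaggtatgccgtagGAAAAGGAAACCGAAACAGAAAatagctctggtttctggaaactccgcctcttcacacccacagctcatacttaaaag
Rsad2 (chr12:26456453-26456612, minus strand): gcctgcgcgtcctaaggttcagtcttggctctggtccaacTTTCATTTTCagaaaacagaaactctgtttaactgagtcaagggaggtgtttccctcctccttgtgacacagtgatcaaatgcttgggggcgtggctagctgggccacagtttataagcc
Oas3 (chr5:120777660-120777819, minus strand): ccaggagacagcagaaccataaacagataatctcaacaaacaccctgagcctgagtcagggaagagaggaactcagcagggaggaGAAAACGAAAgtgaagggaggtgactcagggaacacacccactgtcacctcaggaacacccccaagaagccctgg
Ddx60 (chr8:61927927-61928086, plus strand): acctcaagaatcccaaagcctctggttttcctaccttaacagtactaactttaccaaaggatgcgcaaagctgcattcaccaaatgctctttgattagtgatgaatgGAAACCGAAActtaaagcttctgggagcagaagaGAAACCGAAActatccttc
Bst2 (chr8:71537473-71537632, minus strand): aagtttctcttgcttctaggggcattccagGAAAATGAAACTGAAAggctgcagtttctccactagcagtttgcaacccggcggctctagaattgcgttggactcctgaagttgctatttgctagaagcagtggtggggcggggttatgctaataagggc

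Isg15 and Bst2 carry overlapping matches, which appear as a single run of capitals. The Ifit1 pair lies 85 and 104 bases before the start, and the Rsad2 match 120 bases before it. The repeat was searched on both strands, with overlaps allowed, in windows from 250 bases before to 50 bases after each gene's start. Of 27025 genes with a window, 1079 (3.99%) had a match. The table held windows for 26 of the 33 members, and 15 of the 26 (57.7%) had a match. A longer form, in which CT follows the last GAAA, was present in 0.303% of all genes with a window and in 7 of the 26 members (26.9%). The 11 members whose windows lacked the repeat were Cmpk2, Herc6, Ifi44, Ifit2, Irf7, Irf9, Isg20, Oasl1, Oasl2, Rnf213 and Xaf1. Windows were not used here for Dhx58, Ifi204, Oas2, Parp14, Rtp4, Usp18 and Zbp1. A match describes letters only and is no evidence of binding in these cells.

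The members lie on 14 chromosomes, with a few neighbours (GENCODE vM21, mm10). The 5 Ifit genes share chromosome 19 between 34550694 and 34650009. Ifi204, Ifi207 and Ifi213, members of the PYHIN family of DNA-binding proteins, share chromosome 1 between 173566283 and 173766943. Rsad2 and Cmpk2 adjoin on chromosome 12 between 26442746 and 26479837. Several of these are close paralogs, so their probe counts may share signal and were read with that limit. Levels were compared between cells, not between genes, since each gene has its own probes.

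The files held 24041049 to 51920505 UMIs (unique molecular identifiers, counts of captured molecules) per library. At least 500 UMIs were found in 32878 barcodes, which were kept as cells, 7453 to 9096 per library, with a median of 2659 to 4973 UMIs. No full barcode was shared between libraries. The first 16 bases of 1480 to 2076 barcodes were shared in each pair of libraries, 19.9% to 26.5% of the smaller one. The cause of this overlap was not tested. Cells were assigned to lineages by raw UMIs of 7 marker genes, each gate requiring its own marker and none of the others, and 22002 cells (66.9%) fell in 1 gate. The T cell gates required Cd3e, with Cd4 (CD4 T), with Cd8a (CD8 T) or with neither (double-negative, DN T). Ncr1 marked natural killer cells and type 1 innate lymphoid cells (NK/ILC1), Cd79a marked B cells, Csf3r marked neutrophils and Csf1r marked other myeloid cells. Independent marker lists matched these names, apart from that of the DN T gate. The summed level of 7 neutrophil markers was 81812 to 156738 CPM (UMIs per 1000000 UMIs of that gate and library) in the neutrophil gate and 147 to 718 in the lymphocyte gates. The 7 NK markers reached 11818 to 18125 CPM in the NK/ILC1 gate, and the 6 B cell markers 11790 to 16796 CPM in the B gate. In the DN T gate the CD4 T marker Cd40lg had 118 to 187 CPM, against 199 to 305 in CD4 T and 10.4 to 11.1 in CD8 T cells. Cd8b1, the CD8 T marker, had 120 to 265 CPM there, against 1476 to 2314 in CD8 T and 29.0 to 40.1 in CD4 T cells. The 7 NK markers had 2067 to 2560 CPM in it. The name DN T therefore describes the gate markers only. Kupffer cell markers were near 0 throughout. Per the labels' protocols the cells came from the mononuclear layer of a Percoll gradient, which leaves out many granulocytes, so the neutrophil gate holds those that stayed in that layer.

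Because many cells carried both Csf3r and Csf1r (395 to 558 per library with only those markers), a further split by the larger of the 2 counts was added after seeing the data. It gave 612 to 1129 Csf3r-led cells and 67 to 145 Csf1r-led cells per library. In the Csf1r-led cells 7 monocyte markers summed to 16566 to 23670 CPM, against 1403 to 2878 in the neutrophil gate, although Cx3cr1 had no UMI in any gate. The exclusive Csf1r gate held only 16 to 56 cells per library and was not tested.

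Neutrophils carried the highest member level among the 6 tested gates in 3 of the 4 libraries, and B and NK/ILC1 cells the lowest in every library. In neutrophils the members summed to 2837 CPM for GS, 2801 for URI, 5913 for WT replicate 1 and 3458 for WT replicate 2. For B cells the same libraries had 1267, 1512, 1675 and 1228 CPM. The neutrophil values exceed the B cell values in each library, and WT replicate 1 stands above the other 3 libraries in neutrophils. Mean levels were 3752 ± 1472 CPM in neutrophils, 2805 ± 225 in DN T cells, 2549 ± 411 in CD4 T cells, 2415 ± 423 in CD8 T cells, 1535 ± 204 in NK/ILC1 cells and 1420 ± 211 in B cells (SD, n = 4 libraries). Neighbours in this order often did not separate. DN T cells exceeded CD4 T cells in 3 of 4 libraries by a log2 ratio of 0.15 ± 0.13, CD4 exceeded CD8 T cells in 3 of 4 by 0.08 ± 0.07, NK/ILC1 exceeded B cells in 3 of 4 by 0.11 ± 0.24, and neutrophils exceeded DN T cells in 3 of 4 by 0.35 ± 0.48. CD8 T cells exceeded NK/ILC1 cells in 4 of 4 libraries by 0.65 ± 0.27. Free RNA, measured in barcodes under 100 UMIs, carried members at 2213 to 3080 CPM; its part in these levels was not tested.

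**Figure D1:**
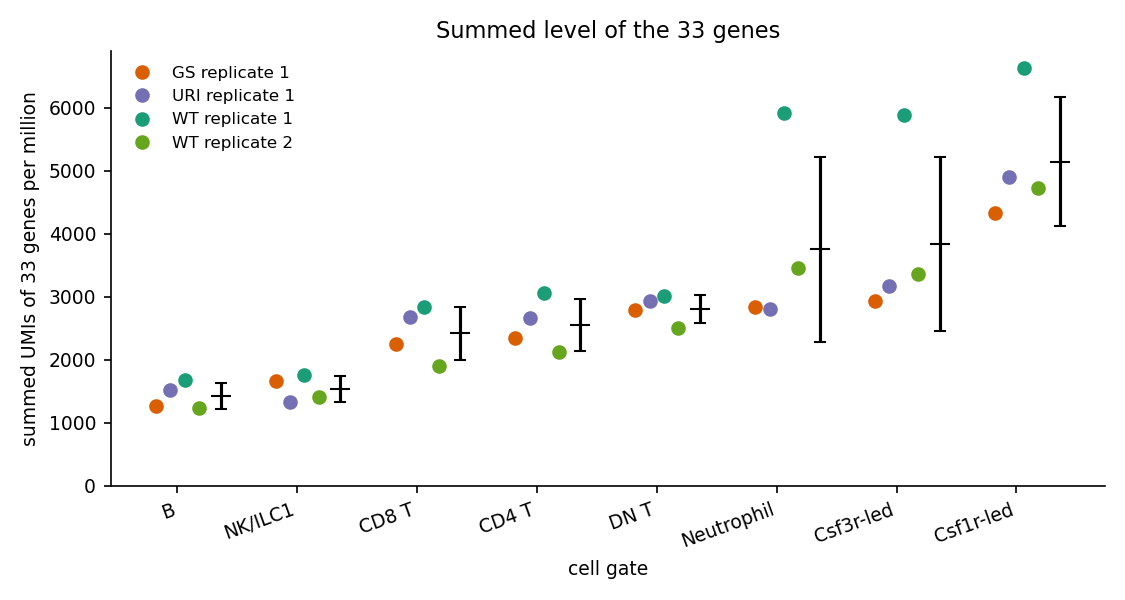
Summed level of the 33 members in CPM (vertical axis) by lineage gate; points are the 4 libraries, and the bar and whisker are mean and SD. Neutrophils span 2801 to 5913 and B cells 1228 to 1675, with WT replicate 1 highest in neutrophils.

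Each lineage was next compared with the mean of the others, gene by gene, in a single edgeR quasi-likelihood fit with library as a term over 10843 genes. A gene was called at a Benjamini-Hochberg adjusted p of 0.05. Of the 33 members 32 passed the filter on low counts; Ifi44 did not, with a mean of at most 1.58 CPM in any gate. In the neutrophil gate 24 of the 32 members were called higher and 3 lower. Over all genes 35.3% were called higher and 43% lower, and the median log2 difference was 2.25 for the members and -0.23 for all genes. The scaling of this fit was TMM (trimmed mean of M-values), the default of edgeR. With total UMIs alone the median of all genes moved from -0.23 to -1.33, the member median from 2.25 to 1.14, and the member split became 20 higher and 10 lower, beside 17.1% and 71.4% of all genes. Under both scalings 20 members were called higher and 3 lower. Without the cells of a high state, which core members define as described further on, 23 were higher and 7 lower, with a median of 1.68. The share of such cells was highest in neutrophils, so their removal lowers the neutrophil difference by construction. These values are a description.

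**Figure D2:**
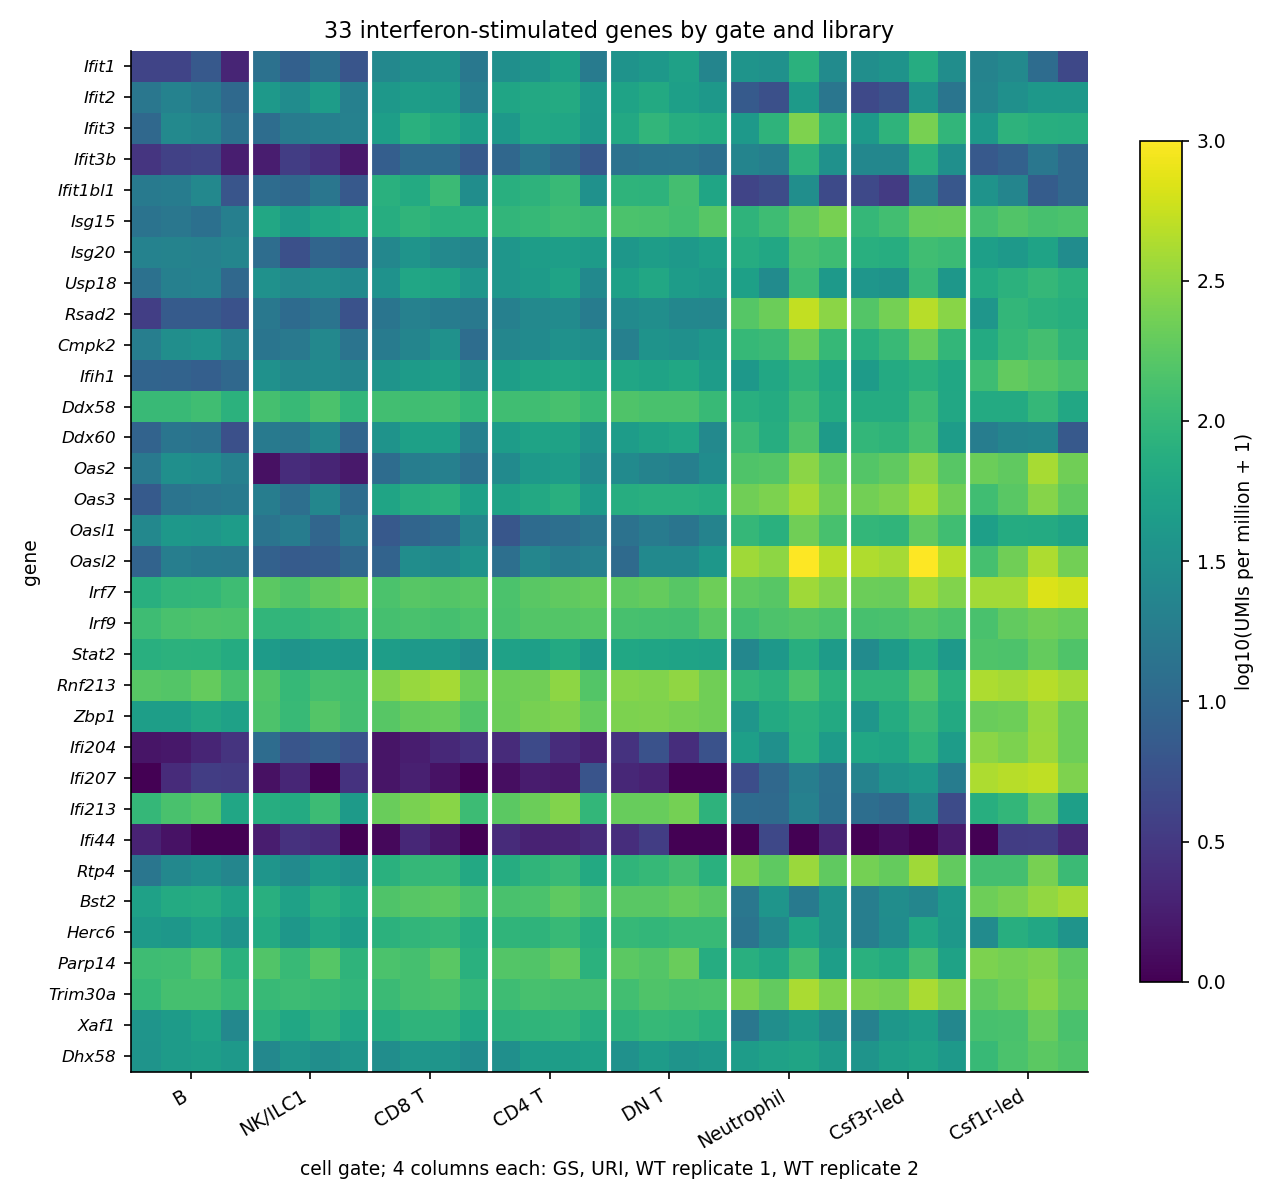
Level of each of the 33 members (rows) in 8 gates with 4 libraries each (columns), as log10 of CPM plus 1, shown by colour. The Oas and Oasl rows, Rsad2 and Ifi204 are brightest in the neutrophil and myeloid columns, and the Ifi44 row is dark in all 8 gates; colours compare gates within a row only.

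Among members with a mean of at least 10 CPM over the gates, Oasl2, Ifi204, Rsad2, Oas2, Oasl1 and Oas3 had the largest log2 differences in neutrophils. Oasl2, an oligoadenylate synthetase-like protein, had 373 CPM for GS, 308 for URI, 981 for WT replicate 1 and 469 for WT replicate 2. Every neutrophil value exceeds every value of the lymphocyte gates, and the log2 difference was 6.12 (SE 0.18, adjusted p = 1.26e-19 by edgeR). Rsad2, which encodes the antiviral enzyme viperin, had 160, 211, 535 and 300 CPM in the same order, a log2 difference of 5.48 (SE 0.16). Oas2 had 147, 159, 298 and 177 CPM (log2 difference 5.08, SE 0.14). Oas2 and Oas3 belong to the synthetases whose nucleotide product activates RNase L, which degrades RNA. Oas3 had 220, 253, 390 and 223 CPM (log2 difference 4.02, SE 0.11) and Oasl1 had 98.4, 79.3, 222 and 135 CPM (4.18, SE 0.19). Ifi204, a cytosolic DNA sensor of the PYHIN family, had 48.2, 30.8, 78.5 and 43.8 CPM (5.66, SE 0.28). WT replicate 1 was the highest library for all 6 genes. With total UMIs alone their log2 differences were 4.99 for Oasl2, 4.36 for Rsad2, 3.97 for Oas2, 2.91 for Oas3, 3.07 for Oasl1 and 4.54 for Ifi204.

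Not every member was high in neutrophils. Ifi213, a PYHIN relative of Ifi204, had 10.2 to 19.9 CPM and a log2 difference of -2.35, Ifit1bl1 had -0.96 and Bst2, the particle tether, had 14.3 to 35.2 CPM and -0.90. These 3 were lower under both scalings. The RNA sensor gene Ddx58 and the ADP-ribosyltransferase gene Parp14 turned with the scaling, from 0.60 to -0.51 and from 0.30 to -0.81. The transcription factor genes Irf9 and Stat2 lost their call with total UMIs, Irf9 going from 1.21 to 0.10 and Stat2 from 0.92 to -0.18. Of the remaining factors and sensors, Irf7 had 166 to 371 CPM (log2 difference 1.76) and Ifih1 had 38.9 to 90.8 CPM (2.18), and the ubiquitin-like modifier Isg15 had 88.1, 116, 180 and 242 CPM (2.39). These 3 were higher under both scalings.

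Monocyte-like Csf1r-led cells had the highest summed level, 4330 CPM for GS, 4894 for URI, 6634 for WT replicate 1 and 4719 for WT replicate 2. In the fit with this split, 24 members were called higher in them and 2 lower, beside 31.2% and 31.8% of 11031 genes. Their profile differed from the neutrophil one in single genes. Ifi207, another PYHIN gene, had 429, 480, 514 and 260 CPM against 4.10 to 18 CPM in neutrophils. Irf7, the factor that amplifies interferon production, had 383, 384, 692 and 606 CPM, and Bst2 had 218, 248, 329 and 391 CPM. The Bst2 values lie above those of neutrophils in each library. These differences between the 2 myeloid groups are given as levels and were not tested. In the Csf3r-led cells of the same split 24 members were called higher and 3 lower, beside 40.2% and 40.9% of genes.

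Each lymphocyte gate was compared with the mean of the other gates, neutrophils included, so the lymphocyte gates were not tested against each other. DN T cells had 15 members higher and 4 lower (29.3% and 23.3% of all genes, member median 0.31 against 0.03). Ifit1bl1 had 87.7, 85.5, 127 and 57.3 CPM in them (log2 difference 1.65, SE 0.13) and Bst2 had 168, 170, 195 and 170 CPM (0.92, SE 0.09). The sensor gene Zbp1 had 254, 262, 244 and 223 CPM (0.86, SE 0.08), and Isg15 had 139, 138, 122 and 164 CPM (0.85, SE 0.11). Bst2, Zbp1 and Isg15 lay close together across libraries in these cells, whereas Ifit1bl1 was lowest in WT replicate 2. Ifit1, with 33.7, 39.2, 50.5 and 22 CPM (0.91, SE 0.13), and Ifi213, with 198, 202, 236 and 85 CPM (0.82, SE 0.08), were likewise lowest in WT replicate 2.

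CD4 T cells had 13 members higher and 6 lower (33.2% and 27% of all genes), and CD8 T cells had 7 higher and 14 lower (34% and 30.5%). With total UMIs alone the splits were 19 and 2 for CD4, 14 and 7 for CD8 and 20 and 1 for DN T cells, beside 59.4% and 13.8%, 55.2% and 17.5%, and 55.9% and 9.32% of all genes. Members called in the same direction under both were 13 and 2, 7 and 7, and 15 and 1. With the Csf1r-led cells in the reference the CD4 split became 8 and 14 and the DN T split 11 and 11. Without the cells of that high state the CD8 split became 12 and 12, a description with the limit given for neutrophils. Ifi213 was higher in CD8 T cells at 203, 247, 291 and 114 CPM (1.11, SE 0.08), and in CD4 T cells at 176, 210, 272 and 95 CPM (0.87, SE 0.08). Oasl1 was lower in both, with 5.31, 10.1, 11.6 and 14.0 CPM in CD4 T cells (-1.63, SE 0.23) and 5.86, 8.59, 10.1 and 22.4 CPM in CD8 T cells (-1.61, SE 0.23). The GS library had the lowest Oasl1 value in each of these gates. Ifit1bl1 was higher in both, at 76.2, 86.0, 108 and 32 CPM in CD4 T cells (1.36, SE 0.13) and 78.5, 66.8, 110 and 28.2 CPM in CD8 T cells (1.24, SE 0.13). Ifit2 was higher in CD4 T cells (57.1, 64.2, 67.2 and 40.1 CPM; 0.79, SE 0.17). In CD8 T cells Rsad2 was lower (13.5, 19.9, 17.1 and 15.5 CPM; -0.88, SE 0.22), as was its neighbour Cmpk2, which encodes a nucleotide kinase (16.5, 21.9, 31.7 and 10.9 CPM; -0.94, SE 0.14).

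B cells had mostly low members, with 2 higher and 25 lower beside 38.6% and 31.5% of all genes and a median log2 difference of -0.98 against 0.06. Ifit1 had 3.07, 3.12, 5.89 and 1.03 CPM (-3.11, SE 0.19) and Isg15 had 12.8, 14.7, 11.8 and 18.9 CPM (-2.94, SE 0.16). The sensor gene Ifih1 had 8.28, 8.01, 7.15 and 9.30 CPM (-2.60, SE 0.14). All libraries agree on these low levels. Rsad2 had 2.60, 6.24, 6.31 and 4.65 CPM (-2.76, SE 0.27) and Oas3 had 6.15, 13.4, 14.3 and 16.3 CPM (-2.53, SE 0.15), the GS library being lowest for both. The 2 members called higher in B cells were Oasl1, at 24.4, 38.5, 36.4 and 45.0 CPM (0.75), and the signal transducer gene Stat2, at 76.6, 84.6, 81.8 and 68.2 CPM (0.65).

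NK/ILC1 cells had 1 member higher and 24 lower (30.6% and 26% of all genes), with a median of -0.62 against 0.02. Oas2 had 0.375, 1.37, 1.06 and 0.583 CPM, a log2 difference of -5.39 (SE 0.36). Every one of these values lies below every neutrophil value of the same gene. Oasl2 had 7.5, 6.32, 6.71 and 9.33 CPM (-2.51, SE 0.39), and the exonuclease gene Isg20 had 10.9, 4.40, 8.48 and 7.0 CPM (-2.53, SE 0.23). Oas3 had 17.6, 11.5, 23.3 and 10.5 CPM (-2.14, SE 0.17), Ifit1bl1 had 10.5, 9.07, 14.1 and 5.83 CPM (-2.06, SE 0.22), and Ifit3b was at 0.583 to 2.47 CPM (-2.85, SE 0.43). The single member called higher, Ifi204 at 10.5, 5.22, 6.71 and 4.66 CPM (1.01), had -0.21 with the Csf1r-led cells in the reference (adjusted p = 0.618 by edgeR). With total UMIs alone B cells had 3 higher and 23 lower beside 47.7% and 25.6% of all genes, and NK/ILC1 cells 2 higher and 22 lower beside 42.2% and 19.8%.

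The members spread unevenly over lineages. With TMM scaling the range of log2 differences over the 6 gates was 10.5 for Oas2, 8.63 for Oasl2, 8.26 for Ifi204 and 8.23 for Rsad2. It was 0.49 for Parp14 and 0.82 for Ddx58, both of which turned direction in neutrophils with total UMIs. The order of the flat members changed with the scaling. The log2 differences of Irf9 lay between -0.48 and 0.24 with total UMIs alone, and those of Dhx58 between -0.35 and 0.38. Members with the promoter repeat had a median neutrophil difference of 2.39 (n = 15), those without it 1.48 (n = 10) and those without a promoter window 1.80 (n = 7), given as a description.

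Interferon genes themselves were nearly absent. Over all cells Ifnb1 had 4 UMIs, Ifna2 3, Ifnk 2, Ifna4 1 and Ifna13 1, and Ifna1, Ifna5, Ifne, Ifnl2 and Ifnl3 had 0. Ifng, the type II interferon, had 45172 UMIs, with a mean of 1052 CPM in NK/ILC1 cells, 671 in DN T, 331 in CD4 T, 188 in CD8 T, 24.4 in neutrophils and 17.0 in B cells. Among the receptor chains Ifnar1 ranged from a mean of 106 CPM in neutrophils to 179 in DN T cells, and Ifnar2 from 77.8 in B cells to 165 in DN T cells. With TMM scaling Ifnar1 was called higher in neutrophils although its mean CPM there was the lowest of the 6 gates, so its direction depends on the scaling. Ifnlr1, the specific chain of the type III receptor, had 61.5 CPM in neutrophils, 3.42 in B cells and 0 in the T and NK/ILC1 gates.

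The inducible GTPases, which are known to respond to interferon gamma, were counted in the same fit, and no test compared them with the members. With TMM scaling, of 14 tested, 2 were called higher and 7 lower in neutrophils, 12 and 0 in CD4 T cells, 10 and 0 in CD8 T cells, 13 and 0 in DN T cells, 5 and 7 in NK/ILC1 cells, and 1 and 11 in B cells. Over all genes the shares called higher and lower were 35.3% and 43%, 33.2% and 27%, 34% and 30.5%, 29.3% and 23.3%, 30.6% and 26%, and 38.6% and 31.5% in the same order. The medians of these lists were -1.43, 0.64, 0.81, 0.95, -0.32 and -1.83 in that order. Among 34 other tested interferon-stimulated genes 15 were called higher and 9 lower in neutrophils, beside the same 35.3% and 43% of all genes. With total UMIs alone the neutrophil shares of all genes were 17.1% and 71.4%, and counts of these lists with that scaling are not given. The membrane proteins Ifitm1, Ifitm2 and Ifitm3, which block viral entry, had means of 1191, 1758 and 497 CPM in neutrophils and at most 25.2 CPM in the lymphocyte gates.

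A small share of cells carried many member UMIs at once. Every cell was thinned to 500 UMIs, and a cell was placed in a high state with at least 4 UMIs from at least 3 of 11 core members (Ifit1, Ifit2, Ifit3, Ifit3b, Isg15, Usp18, Rsad2, Cmpk2, Oasl1, Oasl2 and Ifi44). The limit marks a range of a score and no cell type. It held 179 of 22002 gated cells (0.814%), of which 53 had exactly 4 UMIs, and 63 further cells had 3 UMIs from 3 genes. Pooled over libraries the share was 4.23% in neutrophils (77 of 1821), 1.04% in DN T (29 of 2779), 0.798% in CD4 T (35 of 4384), 0.499% in CD8 T (20 of 4011), 0.300% in NK/ILC1 (8 of 2670) and 0.129% in B cells (8 of 6210). After thinning, 66.8% of neutrophils had no core UMI, as did 93.5% of B cells and 94.2% of NK/ILC1 cells.

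Within neutrophils the libraries differed. The high state held 2 of 316 cells in the GS library (0.633%, exact Clopper-Pearson 95% interval 0.0767 to 2.27) and 16 of 387 in the URI library (4.13%, 2.38 to 6.63). It held 27 of 323 in WT replicate 1 (8.36%, 5.58 to 11.9) and 32 of 795 in WT replicate 2 (4.03%, 2.77 to 5.64). The GS share is the lowest and that of WT replicate 1 the highest, the URI share lies beside that of WT replicate 2, and the intervals of the WT replicates overlap narrowly. Csf3r-led cells gave 0.787% (0.256 to 1.83), 4.15% (2.78 to 5.95), 8.01% (5.98 to 10.4) and 3.81% (2.77 to 5.10) in the same order. In T cells, the 3 Cd3e gates pooled, the shares were 0.662%, 0.732%, 0.929% and 0.633%, with overlapping intervals (0.410 to 1.01, 0.464 to 1.10, 0.623 to 1.33 and 0.316 to 1.13). WT replicate 2 had 0 of 1683 B cells, which allows up to 0.178% by a limit of 3 counts (exact upper end 0.219%), and 0 of 532 NK/ILC1 cells, which allows up to 0.564% by the same limit (exact upper end 0.691%). Intervals and floors cover counting error only, and with 1 library for each deletion no test between genotypes was made. The GS neutrophil share was the lowest of the 4 libraries under each of 7 alternative settings, but its interval did not stay apart. With another thinning seed it was 1.58% (0.516 to 3.65), which overlaps 4.39% for URI (2.58 to 6.94) and 3.02% for WT replicate 2 (1.94 to 4.46). Unthinned it was also 1.58%, beside 3.10% for URI (1.61 to 5.35) and 2.77% for WT replicate 2 (1.74 to 4.16).

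**Figure D3:**
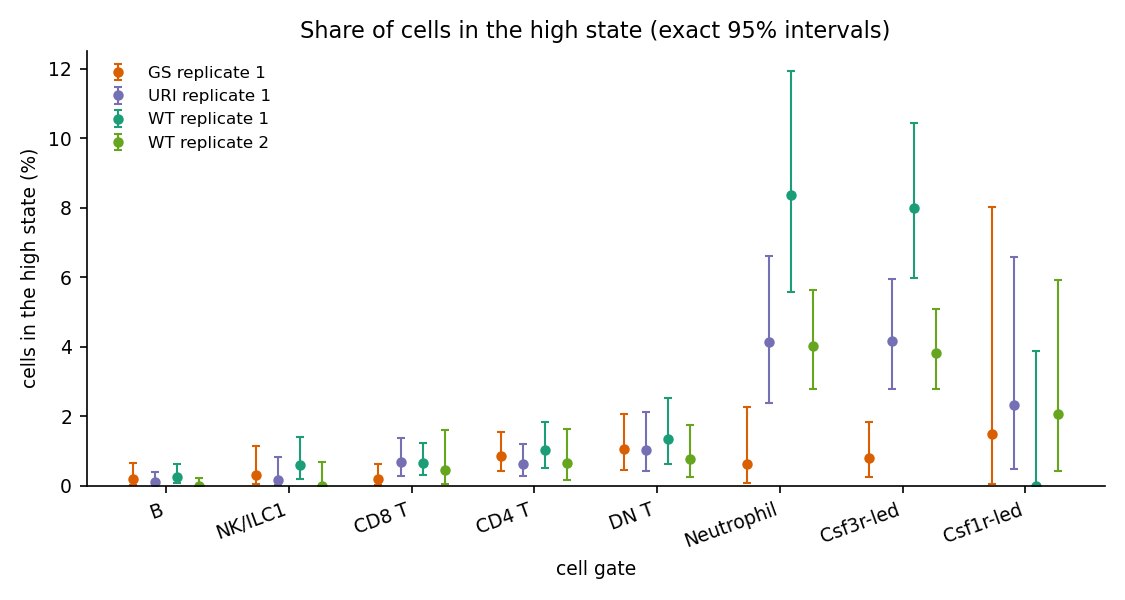
Share of cells in the high state (vertical axis, percent) by gate and library; points are shares and bars are exact 95% intervals for counting error. Neutrophil shares are 0.633%, 4.13%, 8.36% and 4.03% in the GS, URI, WT replicate 1 and WT replicate 2 libraries, and the T cell shares overlap.

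High cells held an unequal part of each library's neutrophil signal. They contributed 5.82% of all neutrophil member UMIs for GS, 20.8% for URI, 42.0% for WT replicate 1 and 22% for WT replicate 2. Outside them the member level was 2697, 2279, 3744 and 2816 CPM in the same order, so WT replicate 1 remained the highest library. In T cells they contributed 7.5%, 8.71%, 9.31% and 7.63%, and their member level was 27772, 26474, 25516 and 22632 CPM against 2238, 2498, 2699 and 2035 CPM in other T cells. Depth did not separate the 2 kinds of T cell. Median UMIs were 4863, 6616, 5127 and 3463 in high T cells and 5106, 5912, 4472 and 3301 in other T cells.

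The 22 members outside the core had no part in choosing these cells and were tested between high and other cells of the same library. The filter on low counts used both kinds of sum, so a gene could pass through its level in high cells alone. The counts of members that passed carry this limit. In T cells (9658 genes) all 21 that passed the filter were higher, beside 4.61% of all genes called higher and 2.6% lower, and their median log2 difference was 3.11 against -0.10 for all genes. In neutrophils of the URI, WT replicate 1 and WT replicate 2 libraries (5122 genes) 19 of 21 were higher, beside 2.42% and 1.43% of all genes, with a median of 2.41 against -0.14. The GS library had too few high neutrophils for that fit. Without WT replicate 1 the fit called 17 of 21 members and 58 genes higher, and without WT replicate 2 it called 16 of 21 members and 80 genes. In Csf3r-led cells of the same 3 libraries, 21 of 21 were higher (2.6% and 0.964% of 6848 genes; median 2.51).

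Sensors, factors and effectors moved together in T cells. Irf7 had 1256, 1352, 1108 and 1188 CPM in high T cells and 140, 161, 157 and 187 CPM in other T cells of the GS, URI, WT replicate 1 and WT replicate 2 libraries (log2 difference 3.04, SE 0.13). Zbp1 had 1935, 1874, 1706 and 1591 CPM against 190, 215, 213 and 182 (3.24, SE 0.13). The groups do not overlap for either gene. Ifih1 had 661, 569, 567 and 358 CPM against 40.6, 46.0, 47.2 and 41.3 (3.76, SE 0.17), and Oas2 had 447, 451, 305 and 493 CPM against 17.5, 24.5, 24.5 and 19.5 (4.35, SE 0.23). Isg20 rose by 4.27 and the ubiquitin ligase gene Rnf213 by 3.16. Irf9, part of ISGF3, rose least, with 400, 326, 280 and 403 CPM against 132, 143, 137 and 156 (1.38, SE 0.17). Ifi204, nearly silent in other T cells at 0.486 to 2.16 CPM, had 93.0, 130, 18.7 and 44.8 CPM in high T cells. It may have passed the filter through the high cells alone, so its difference of 5.91 (SE 0.69) is a description.

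In neutrophils Irf9 again had the smallest difference of the tested members outside the core, at 307, 317 and 356 CPM in high cells of the URI, WT replicate 1 and WT replicate 2 libraries against 139, 142 and 132 (1.29, SE 0.29). Irf7 had 1335, 1937 and 1335 CPM against 133, 228 and 231 (3.01, SE 0.26), and the ligase gene Herc6 had 217, 408 and 216 CPM against 18.6, 25.8 and 26.2 (3.56, SE 0.41). High cells are above other cells in each of the 3 libraries for all of these genes. Bst2 (1.81, adjusted p = 0.0660 by edgeR) and Ifi213 (2.41, adjusted p = 0.0801) did not pass. Members with the promoter repeat had a median difference of 3.66 in high T cells (n = 14), those without it 3.53 (n = 10) and those without a promoter window 3.53 (n = 7), core members included.

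**Figure D4:**
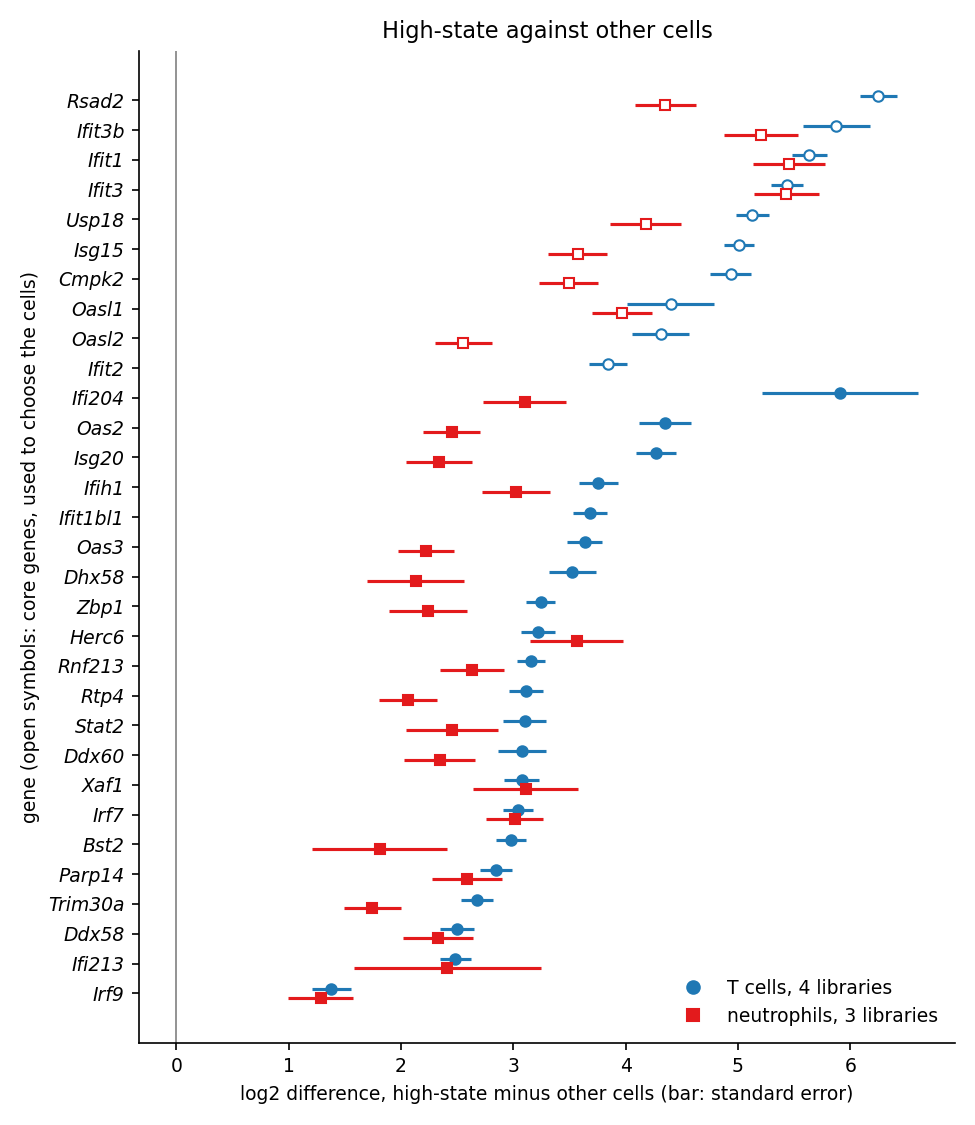
Log2 difference between high-state and other cells (horizontal axis) for each member tested in T cells (rows), with circles for T cells, squares for neutrophils and SE bars; open symbols are core members, which chose the cells. All plotted members outside the core lie above 0, with Irf9 lowest at 1.38 in T cells and 1.29 in neutrophils; Ifit2 and Ifit1bl1 were below the filter in neutrophils, and Ifi207, tested in neutrophils (2.74) but not in T cells, is not drawn.

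Core members chose the cells, so their values are a description. In T cells Isg15 had 2968, 2354, 2441 and 2263 CPM in high cells and 76.6, 83.8, 73.5 and 105 in others, and Rsad2 had 1182, 807, 915 and 784 CPM against 10.9, 16.8, 11.7 and 13. In high neutrophils of the URI, WT replicate 1 and WT replicate 2 libraries Rsad2 had 3573, 4077 and 2682 CPM against 118, 213 and 195. Oasl2 had 2310, 3488 and 1843 CPM against 252, 752 and 409, so other neutrophils kept a high Oasl2 level.

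Of genes outside the list, those with the largest higher values were the following. In high T cells they were Iigp1 (log2 difference 4.90), the chemokine gene Cxcl10 (4.58), Ube2l6 (4.33), which encodes the conjugating enzyme for ISG15, Slfn5 (4.28), Ifi211, Sdc3, Trim30c, Ifitm3, Gbp10, Parp12, Phf11a and Slfn3. In high neutrophils they were Cxcl10 (5.24), with 199, 861 and 496 CPM against 7.55, 9.29 and 21.8, then Gbp2 (3.90), Ifit1bl2, Ttc39c, Irgm1, Slfn5, Ifi47, Igtp, Slfn8, Gbp7, Irgm2 and Eif2ak2. On the lower side the fitted differences were larger for genes with no UMI in high cells, whose fitted size is no bound. The T cell receptor segment genes Trbv17 and Trbv26 had 0 UMIs in high T cells and 35.6 to 81.4 and 34.4 to 86.8 CPM in other T cells. These zeros rest on 84 high T cells, and how many cells carry each segment was not counted. Camp had 0 UMIs in high neutrophils and 482 to 8222 CPM in other neutrophils. Of 107 listed pathway genes that are not members, 64 of 87 tested were higher in high T cells and 33 of 68 tested in high neutrophils. Over all genes 4.61% and 2.42% were called higher. As with the members, a gene could pass the filter through its level in high cells alone. The genes named here and these counts carry that limit. All 14 GTPases were higher in T cells (median 2.86) and 6 of the 7 tested in neutrophils (median 2.92), and the class I antigen presentation genes counted 8 of 9 and 3 of 9. The receptor genes did not pass, Ifnar1 differing by 0.10 (SE 0.20, adjusted p = 0.896 by edgeR) in T cells and by 0.12 (SE 0.42, adjusted p = 0.956) in neutrophils. Irf1 was higher in both. Ifng was higher in high T cells by 1.32.

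Markers of other cells were measured beside these results. In high T cells the T cell list summed to 2666 to 5982 CPM, against 3984 to 5775 in other T cells, and the neutrophil list to 199 to 605 against 212 to 555. The 7 NK/ILC1 markers summed to 1918 to 2580 CPM in high T cells against 1452 to 1789 in others, higher in each library and with no overlap. Cd8b1 had 214, 451, 841 and 403 CPM against 747, 722, 1193 and 509. The B cell list summed to 336 to 660 against 626 to 849, and both were lower in each library. Of the high T cells 29 were DN T, 35 CD4 T and 20 CD8 T cells. The part of these markers in the member differences was not tested. The 7 monocyte markers summed to 739 to 1146 against 411 to 575. Of these Ly6c2, itself also found on T cells, had 765 against 300 CPM pooled over libraries. Ccr2 had 150 against 96.4 and Ms4a6c had 58.2 against 41.3. F13a1 had 2.08 against 1.00, with 1 UMI in high cells. Lyz2 was lower, at 14.6 against 31.4, as was Fn1, at 0 against 3.50. The Kupffer list was at 0 in high cells of both kinds. In high neutrophils of the URI, WT replicate 1 and WT replicate 2 libraries the neutrophil list summed to 86928, 124033 and 72679 CPM against 158685, 141223 and 82213 in others, lower in each. The 2 high cells of the GS library had 171844 against 120105. Over the 4 libraries the T cell list summed to 22.7 to 109 against 127 to 287.

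High neutrophils were poor in transcripts of secondary granules, a set chosen after its values were seen. In the Csf3r-led cells Camp, which encodes the cathelicidin peptide, had 1 UMI in high cells and 22190 in others, and Ltf, the lactoferrin gene, had 5 and 27236. Ngp fell by 6.55, the chitinase-like gene Chil3 fell by 4.52 and Lcn2 fell by 1.55 on the log2 scale. S100a8 (-0.42, adjusted p = 0.257 by edgeR), Mmp8 (adjusted p = 0.0543) and Cxcr2 (0.48, adjusted p = 0.0735) did not pass. The granule genes also differed between libraries, Camp in other Csf3r-led cells being at 225 CPM for GS, 4796 for URI, 1340 for WT replicate 1 and 312 for WT replicate 2.

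The last comparison asked whether the members differed with the hepatocyte deletions. Each deletion had 1 library, so the only spread came from the 2 WT libraries, with 1 residual degree of freedom per gene. That spread may be technical. The fit shares it between genes, so a p-value does not measure the WT spread of its own gene alone. No member was called in any of 18 contrasts (6 gates, GS against WT, URI against WT and GS against URI) by edgeR, nor by DESeq2. The share of all genes called was 0.0584% for URI against WT and 0.0292% for GS against URI in DN T cells, 0.0289% for GS against WT and 0.00962% for GS against URI in B cells, and 0 in the others. In neutrophils 5 members had an unadjusted p under 0.05 by edgeR for GS against WT and 7 for URI against WT, all lower, as had 91 and 474 of 8319 genes. In each other contrast against WT at most 1 member did.

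Neutrophil members nevertheless lay below WT in both deletion libraries. For GS against WT 31 of 32 had a negative log2 difference (54.3% of all genes) with a median of -0.79 against -0.05. For URI against WT 30 of 32 were negative (51.6%) with a median of -0.74 against -0.02. GS against URI gave a median of 0.06. Both contrasts share the WT libraries, and WT replicate 1 exceeded WT replicate 2 in 30 of 32 members, against 39.9% of genes. Of the 32 members at 10 CPM or more, 22 lay below both WT libraries in GS (30.7% of genes) and 19 in URI (28.8%). The log2 ratio of the summed level to WT was -0.67 for GS and -0.69 for URI, beside an SD of 0.55 between the WT libraries. Without WT replicate 1 these became -0.29 and -0.30, values with no test.

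Ifit genes had the largest differences. Ifit3 had 41.0 CPM for GS, 89.1 for URI, 264 for WT replicate 1 and 93.5 for WT replicate 2 (GS against WT -2.14, SE 0.72, adjusted p = 1.0 by edgeR). WT replicate 1 stands well above the rest, and URI lies beside WT replicate 2. Ifit2 had 6.15, 4.41, 41.6 and 13.9 CPM, below both WT libraries in each deletion (URI against WT -2.68, SE 0.88, adjusted p = 0.73; GS against WT -2.12). Ifit3b had 21.5, 18.6, 86.1 and 31.5 CPM (URI against WT -1.73), and Usp18 had 49.2, 26.9, 112 and 40.6 CPM (-1.58). Ifit1bl1 had 3.07, 3.92, 29.3 and 3.74 CPM, so its difference rests on WT replicate 1. With total UMIs alone Ifit3 was called for GS against WT (-2.11, adjusted p = 0.0452). Ifit2 was called for URI against WT in cells with at least 2 marker UMIs (-2.74, adjusted p = 0.0230).

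**Figure D5:**
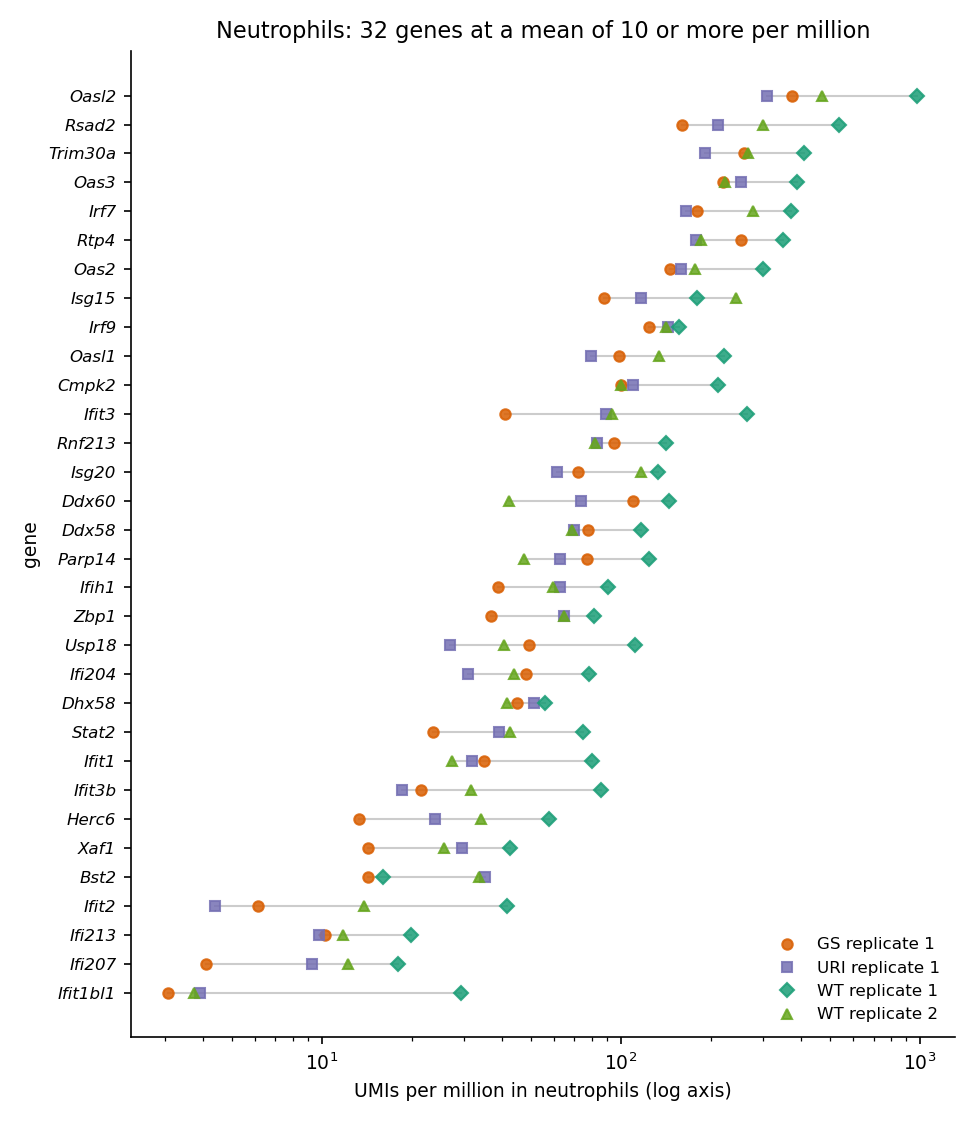
Level of 32 members in neutrophils (CPM, log axis) with a point for each of the 4 libraries. WT replicate 1 lies highest for most members; Ifit2 reads 6.15, 4.41, 41.6 and 13.9 and Ifit3 reads 41.0, 89.1, 264 and 93.5 in GS, URI, WT replicate 1 and WT replicate 2.

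The larger Csf3r-led group gave 1 call. The member median was -0.61 for GS against WT and -0.57 for URI against WT. Of 31 members at 10 CPM or more, 21 lay below both WT libraries in GS and 13 in URI, beside 33.3% and 25.3% of genes. Above both lay 0 members in each, beside 26.2% and 37.6% of genes. WT replicate 1 exceeded WT replicate 2 in 29 of the 31, against 46.9% of genes. Ifit2 had 3.59, 4.73, 34.2 and 13.5 CPM there and was called lower for URI against WT (-2.38, SE 0.58, adjusted p = 0.0206 by edgeR), beside 0.101% of all genes called lower. For GS against WT it had an adjusted p of 0.0964, beside 0.0448% of genes called. Ifit3 had 40.7, 88.1, 242 and 94.6 CPM (GS against WT -1.96, adjusted p = 0.0964). For GS against URI 0.56% of genes were called and the member median was 0.05. In Csf1r-led cells the member medians against WT were -0.45 for GS and -0.23 for URI. Of 31 members at 10 CPM or more, 20 lay below both WT libraries in GS and 2 above, beside 30.6% and 31.4% of genes. In URI 12 lay below both and 8 above, beside 23.3% and 35.7% of genes. Granule transcripts differed between the same libraries, and their part in these differences was not tested.

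The contrasts were also fitted without the high cells, an alternative added after seeing the data. Core members chose those cells and GS had fewer of them than WT, so their removal lowers WT more by construction, and these values are a description. For GS against WT the neutrophil member median became -0.26, and for URI against WT -0.51. GS against URI became 0.28. In other gates the medians lay between -0.28 and 0.17. GS and URI against WT gave -0.20 and 0.06 in CD4 T cells, -0.14 and 0.17 in CD8 T cells, -0.08 and 0.03 in DN T cells, 0.06 and -0.22 in NK/ILC1 cells and -0.28 and 0.04 in B cells. With high cells kept, 13 of 25 B cell members at 10 CPM or more lay below both WT libraries in GS and 0 above. Of all genes 20.1% and 24.9% did so. In CD4 T cells 12 of 29 lay below and 0 above (17.6% and 26.7% of genes). The GS counts were 7 of 29 below and 1 above in CD8 T cells (17.5% and 23.9%). They were 9 of 30 and 6 in DN T cells (17.3% and 25.8%) and 4 of 24 and 7 in NK/ILC1 cells (19.3% and 26.8%). Oasl2 was lowest in the GS library in 4 lymphocyte gates, as Oasl1 was in the CD4 T, CD8 T and B gates. Oasl2 had 8.08, 28.9, 25.4 and 33.9 CPM in CD8 T cells (GS against WT -1.88, SE 0.59, unadjusted p = 0.0056, adjusted p = 1.0 by edgeR) and 9.81, 25.8, 25.4 and 37.7 CPM in DN T cells (-1.72). In CD4 T cells it had 11.5, 23.0, 17.8 and 19.8 CPM and in B cells 8.04, 18, 15.8 and 15.3 CPM, the GS library being lowest in all 4 gates.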

How the data were processed

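CD45+ liver cells were fixed and probed for the mouse transcriptome, so only genes with a probe were measured. The deposited files hold raw UMI counts per gene and barcode, made with Cell Ranger 8.0.0 against mm10 per the submitters' processing notes. They list 267215 to 401184 barcodes per library. Deprecated probe rows (59, with 0.0649% of UMIs) were left out. The members and lists were chosen with earlier results of these data known.

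Cells are not replicates, so counts were summed per library and gate and tested with edgeR 4.0.16 in R 4.3.3 (TMM, its filterByExpr filter and the quasi-likelihood test, with p-values adjusted over all genes by Benjamini and Hochberg and a threshold of 0.05). A gate needed at least 50 cells in each library and a high-state sum at least 10 cells. High state was called after thinning to 500 UMIs with seed 1. Named members were the 6 per lineage and 4 per deletion contrast with the largest log2 differences at a mean of 10 CPM, and 12 other genes at 20 CPM. Alternatives were DESeq2 1.42.0, RLE size factors, no filter, total UMIs, gates at 2 UMIs, 1000 UMIs per cell, leaving out each library, and at least 250 genes with at most 10% mitochondrial UMIs and the top 5% of Scrublet scores removed. Doublets were otherwise kept. The steps were tested on simulated data.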

Additional observations from a re-analysis of the deposited data

How the results depend on the processing

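Alternatives kept the direction and call of 1663 of 1767 single-member lineage values, 630 of 632 deletion values and 553 of 570 high-state values. Of the summed log2 ratios 99 of 99 moved by less than the WT spread, the SD between the WT libraries. Leaving out a WT library moves a ratio to WT by less than this SD by construction, so those settings could not fail. The count therefore does not show how far the ratios rest on either WT library. Total UMIs, the Csf1r-led split and the removal of high-state cells were chosen after seeing the data. No paired analysis was possible because the groups share only replicate number 1.

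With total UMIs alone, members lower became 2 in CD4 T, 7 in CD8 T, 1 in DN T and 10 in neutrophils, and members higher became 14 in CD8 T and 2 in NK/ILC1 cells. With this scaling 1 member (Ifit3) was lower for GS against WT in neutrophils, and 459 genes were lower in high T cells. It also turned Ddx58 to 0.12 in CD4 T, 0.075 in CD8 T and -0.51 in neutrophils, Irf9 to 0.033 in CD8 T and 0.072 in DN T cells, and Stat2 to -0.18 and Parp14 to -0.81 in neutrophils. The Csf1r-led split gave 8 higher and 14 lower in CD4 T, 11 lower in DN T and 0 higher in NK/ILC1 cells (edgeR), turned Ifi204 to -0.21 in NK/ILC1 cells, and had 1 member (Ifit2) lower for URI against WT in Csf3r-led cells, as had gates at 2 UMIs in neutrophils (1). Without high-state cells, which core members chose, 12 members were higher in CD8 T cells and 7 lower in neutrophils, given as a description. The causes were not tested.

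Leaving out a library gave 1 to 4 members lower in DN T cells (1 without WT replicate 1) and 0 to 1 higher in NK/ILC1 cells (0 without GS replicate 1). Genes lower in high T cells ranged from 139 to 239. In high neutrophils 58 to 118 genes were higher and 24 to 36 lower, and in high Csf3r-led cells 113 to 150 and 32 to 46, with fewer libraries in each fit. DESeq2 called 81, 17 and 18 genes lower in high T cells, neutrophils and Csf3r-led cells, and the fit with no filter called 43 lower in neutrophils.

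The share of all gated cells in the high state, 0.513%, 0.695%, 1.10% and 0.937% for GS, URI, WT replicate 1 and WT replicate 2, moved with its limit. At 3 UMIs it was 0.779%, 1.11% and 1.41% for the first 3 libraries, and at 6 UMIs 0.190%, 0.364%, 0.627% and 0.416%. Unthinned it was 0.780% and 0.645% for the WT replicates. The GS neutrophil share rests on 2 high cells.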
